A study of Oryza sativa with 9 samples.

Results

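Heat shock factors, small heat shock proteins (small HSPs) and chaperones are described here through 9 genes of the rice leaf transcriptome. They were taken from the gene table by their RAP identifiers, and all 9 were among its 37858 genes. The set holds the heat shock factors HSFA2A and HSFA2C, the disaggregase HSP101, the small HSP genes HSP16.9A, HSP16.9B, HSP17.4, HSP18.1 and HSP26.7, and the endoplasmic reticulum chaperone BIP1. The table holds identifiers only, and each name was paired with its identifier from general knowledge. It was kept because a RefSeq gene of that name lies at nearly the same relative place on the same chromosome. This check cannot tell neighbouring genes apart. Which name belongs to which identifier within a cluster, as for HSP16.9A and HSP16.9B or HSP17.4 and HSP18.1, therefore rests on general knowledge alone. The RefSeq record of HSFA2C is a transcribed pseudogene in that assembly, while the table counted reads for its RAP identifier.

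Leaves of Oryza sativa were sampled at 85 days after sowing. The wild type is called WT. The plants called OE carried an OsCOMT overexpression, and those called the mutant are labelled only as an OsCOMT mutant. OsCOMT is a caffeic acid O-methyltransferase that acts in lignin synthesis and in the last step of melatonin synthesis. Each genotype had 3 libraries, with 10674819 to 11809530 reads per library. The labels give neither the promoter of the overexpressing plants, the kind of mutation, the number of independent lines nor the hour of sampling. The sample titles of WT and OE share an ending that the mutant titles lack, and its meaning is not stated. In the mutant titles a number directly follows the word Mutant. Whether it marks separate mutant lines is not stated. Whether the libraries of a genotype stem from separate plants is not stated either, so a p-value here reflects the spread between libraries, which may be technical. Levels are FPKM, reads scaled to gene length and to the library total, a scale on which genes of different length can be compared.

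When proteins unfold, as in heat, heat shock factors of class A bind heat shock elements in promoters and switch on chaperone genes. Small HSPs hold unfolding proteins so that they do not aggregate irreversibly, HSP101 pulls proteins back out of aggregates with energy from ATP, and HSP70 and HSP90 proteins refold clients. Genes of the A2 class of factors are themselves heat-induced in plants and prolong the response. BIP1 is the HSP70 of the endoplasmic reticulum and belongs to a separate programme, the unfolded protein response, which reports on folding of secreted proteins.

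In the OsCOMT mutant 5 of the 9 genes were higher than in WT: HSFA2A, HSFA2C, HSP101, HSP17.4 and HSP18.1. Their mean levels were 2.81 times (HSFA2C), 4.68 times (HSP101), 19.5 times (HSP18.1), 21.8 times (HSP17.4) and 110.2 times (HSFA2A) those of WT. No member was lower in the mutant at the threshold. For the same 5 genes the mutant and WT libraries did not overlap, as for 26.0% of all tested genes in that direction. In OE no member passed against WT. The test was limma on log2(FPKM + 1), with Benjamini-Hochberg adjustment over 19850 genes and an adjusted p under 0.05, and 8 of the 9 members reached the minimum mean of 1 FPKM over all libraries. Of all genes tested, 19.6% were called higher and 22.4% lower in the mutant against WT. HSP101, HSFA2A, HSP16.9A and HSP18.1 reached the minimum only through the mutant libraries, since their mean over WT and OE was under 1 FPKM, so the count of 5 is a description of the members and is not evidence about them as a set.

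**Figure D1:**
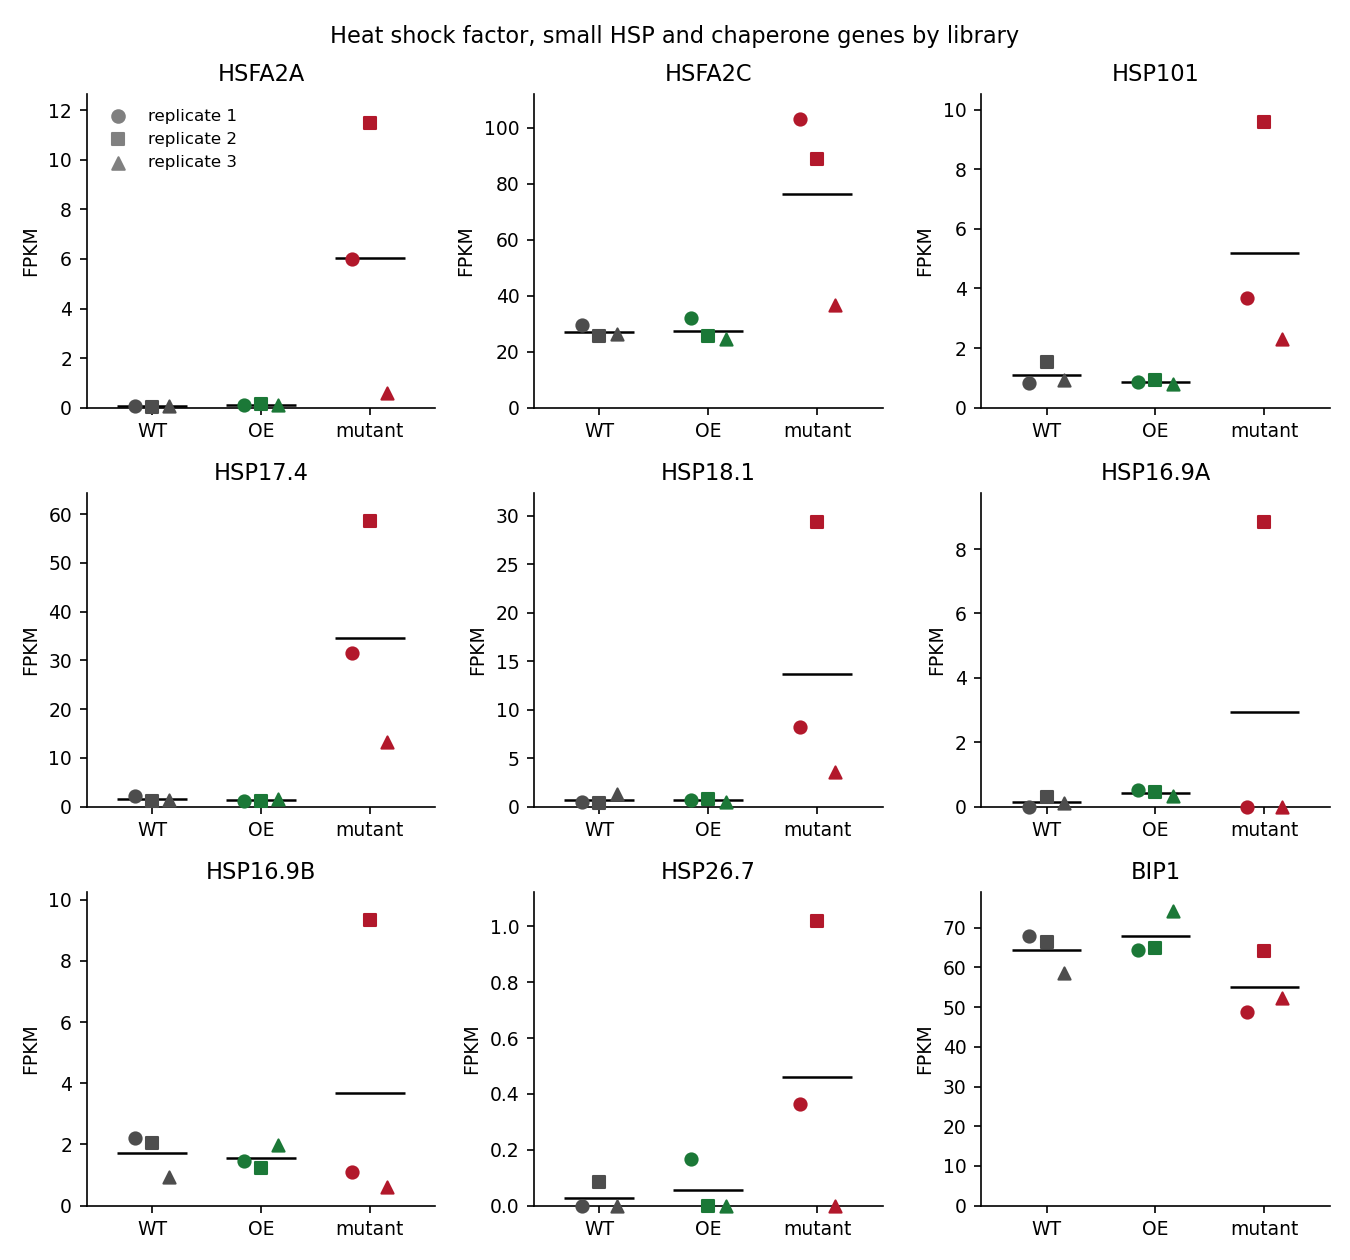
Level of each gene in FPKM (vertical axes from 0, a separate scale per gene) in the WT, OE and mutant libraries. Symbols are replicate libraries and the black line is the mean of 3. In mutant replicate 2, 8 of the 9 genes have their highest mutant value, and BIP1 has similar levels in all 3 genotypes.

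HSFA2A (Os03g0745000, chromosome 3) had almost no reads outside the mutant. The WT libraries held 2, 1 and 2 reads, the OE libraries 3, 4 and 3 reads, and the mutant libraries 174, 327 and 18 reads. In FPKM the mutant libraries were at 6.01, 11.5 and 0.607, and no WT or OE library exceeded 0.139. Every mutant library therefore lay above every other library, while the mutant libraries themselves spanned a factor of 18.9. The mean FPKM was 0.0548 ± 0.0197 (WT), 0.111 ± 0.0243 (OE) and 6.04 ± 5.45 (mutant), each with its SD over n = 3. The ratio of reads per library total was 109 in the mutant against WT, with a 95% counting interval of 46.6 to 338, and 54.0 against OE (29.2 to 113). These intervals cover counting error only. On the log2(FPKM + 1) scale, which understates changes of low genes, the difference was 2.30 (limma SE 0.59, adjusted p = 0.012) against WT and 2.23 (SE 0.59, adjusted p = 0.013) against OE. The call was lost when limma voom was run on the recovered reads, with a log2 difference of 5.65 and an adjusted p of 0.085 against WT.

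HSFA2C (Os10g0419300, chromosome 10) was already abundant in WT. It was at 25.7 to 29.5 FPKM in WT, from 686, 612 and 597 reads, at 31.9, 25.5 and 24.4 FPKM in OE, and at 103, 88.8 and 36.7 FPKM in the mutant. The mutant libraries lay above all others, and replicate 3 was the nearest to them. The mean rose from 27.2 ± 2.08 FPKM in WT to 76.3 ± 35.0 FPKM in the mutant (SD, n = 3), a log2 difference of 1.33 (limma SE 0.32, adjusted p = 0.0082). Against OE, at 27.3 ± 4.09 FPKM, it was also 1.33 (SE 0.32, adjusted p = 0.0080). The next gene along the chromosome, Os10g0419400, was called higher in both OE (log2 difference 2.73, SE 0.40, adjusted p = 0.033) and the mutant (1.67, SE 0.40, adjusted p = 0.0083), while HSFA2C did not change in OE at the threshold.

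Rice has 5 genes of the A2 class, and their summed level gives the share of each. The sum was 83.9 to 102 FPKM in WT, 75.9 to 109 FPKM in OE, and 288, 262 and 131 FPKM in the mutant libraries. HSFA2A made up 0.0337 to 0.0796% of the sum in WT and 2.09, 4.39 and 0.463% in the mutant, so it remained a minor part despite its fold change. HSFA2C and HSFA2D made up most of the difference in level. HSFA2D (Os03g0161900) had WT levels of 29.1, 26.4 and 16.7 FPKM and mutant levels of 129, 117 and 50.7 FPKM, a log2 difference of 1.92 (limma SE 0.38, adjusted p = 0.0030). HSFA2B (Os07g0178600) rose from 2.18 ± 0.232 to 4.91 ± 0.790 FPKM (log2 difference 0.89, SE 0.17, adjusted p = 0.0023). HSFA2E (Os03g0795900), the most abundant of the class in WT, was at 40.3 ± 1.35 FPKM there and 41.2 ± 3.16 FPKM in the mutant (0.03, SE 0.11, adjusted p = 0.86). HSFA2B, HSFA2D and HSFA2E are not members and are given for the class. How reads shared by similar genes were assigned is not given in the sources used here, so the split within the class is uncertain.

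**Figure D2:**
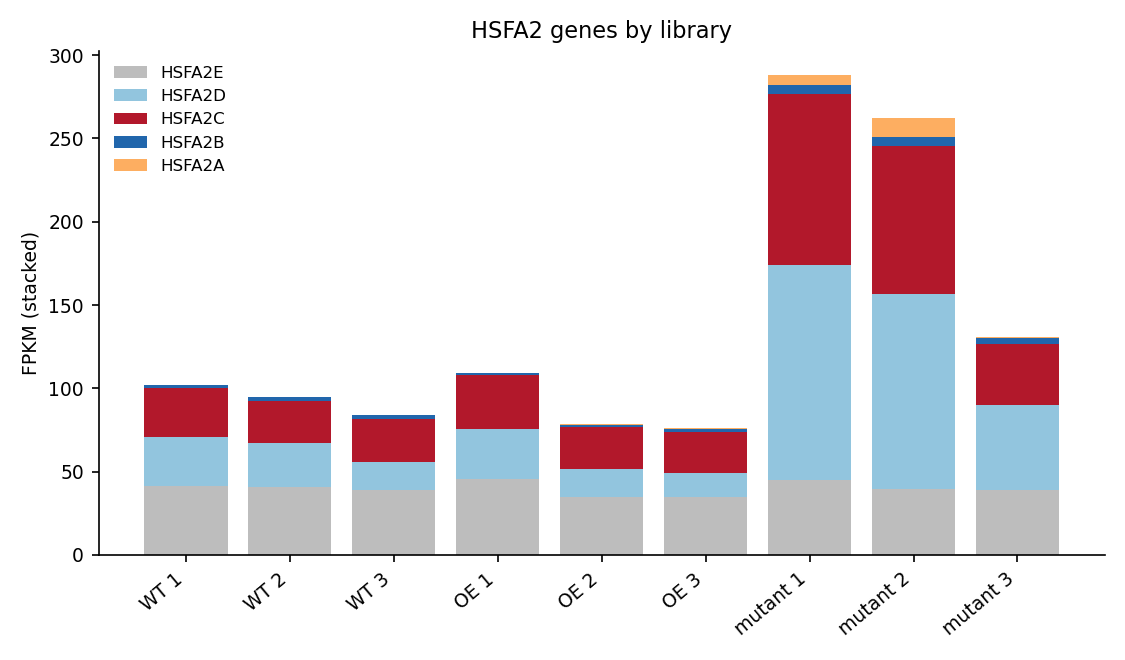
Level of the 5 HSFA2 genes in each library, stacked in FPKM from 0. The stack reaches 288, 262 and 131 FPKM in the mutant libraries and at most 109 FPKM elsewhere, and HSFA2E stays near 40 FPKM throughout.

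HSP101 (Os05g0519700, chromosome 5), the ClpB-type ATPase needed for acquired heat tolerance in plants, was low in WT and OE. Its levels were 0.844, 1.54 and 0.942 FPKM in WT, 0.871, 0.924 and 0.792 FPKM in OE, and 3.67, 9.60 and 2.30 FPKM in the mutant. The lowest mutant library stood above the highest WT library. The means were 1.11 ± 0.378, 0.862 ± 0.0663 and 5.19 ± 3.88 FPKM (SD, n = 3), from 123, 94 and 539 reads over the libraries of each genotype. The log2 difference was 1.39 (limma SE 0.36, adjusted p = 0.012) in the mutant against WT and 1.55 (SE 0.36, adjusted p = 0.0068) against OE. The genes on either side of it along the chromosome did not follow: Os05g0519600 had a log2 difference of -0.68 (SE 0.15, adjusted p = 0.0060), and Os05g0519800 had a log2 difference of -0.33 (SE 0.16, adjusted p = 0.12).

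HSP17.4 (Os03g0266900) and HSP18.1 (Os03g0267000), class I cytosolic small HSPs, are neighbours on chromosome 3 and were the small HSP members called in the mutant. HSP17.4 was at 2.09, 1.25 and 1.42 FPKM in WT, at 1.24, 1.11 and 1.63 FPKM in OE, and at 31.6, 58.5 and 13.3 FPKM in the mutant. HSP18.1 was at 0.493, 0.361 and 1.26 FPKM in WT, at 0.718, 0.785 and 0.495 FPKM in OE, and at 8.19, 29.4 and 3.56 FPKM in the mutant. For both genes all mutant libraries were above all other libraries, with replicate 2 highest and replicate 3 lowest. The mutant mean was 34.5 ± 22.7 FPKM against 1.58 ± 0.445 FPKM in WT for HSP17.4, a log2 difference of 3.56 (limma SE 0.42, adjusted p = 0.00015). For HSP18.1 it was 13.7 ± 13.8 FPKM against 0.704 ± 0.483 FPKM (SD, n = 3), a log2 difference of 2.70 (SE 0.56, adjusted p = 0.0038). Against OE the log2 differences were 3.71 (SE 0.42, adjusted p = 0.00011) and 2.71 (SE 0.56, adjusted p = 0.0037).

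The 2 genes flanking this pair differed from it and from each other. Os03g0266800, before HSP17.4, was 1.19 higher in the mutant on the log2 scale (limma SE 0.15, adjusted p = 0.00024). Os03g0267100, after HSP18.1, had 3 reads in WT and 5 in the mutant, each summed over the libraries. The next small HSP gene there, HSP17.7 (Os03g0267200), had 0 reads in all libraries. Small HSPs of this class are very similar in sequence, and how shared reads were assigned is not given in the sources used here, so the split between HSP17.4 and HSP18.1 is uncertain.

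HSP16.9A (Os01g0136100) and HSP16.9B (Os01g0136200), neighbours on chromosome 1 of the same class, were high in a single library. HSP16.9A had 0, 3 and 1 reads in WT, 5, 4 and 3 reads in OE, and 0, 77 and 0 reads in the mutant. HSP16.9B had 19, 18 and 8 reads in WT, 13, 10 and 17 in OE, and 9, 75 and 5 in the mutant. Mutant replicate 2 held 8.85 FPKM of HSP16.9A and 9.34 FPKM of HSP16.9B. The other mutant libraries held 0 FPKM of HSP16.9A and 1.10 and 0.598 FPKM of HSP16.9B, within or below the range of WT. Neither passed in the mutant against WT: the log2 difference was 0.92 for HSP16.9A (SE 0.74, 95% interval -0.74 to 2.57, limma adjusted p = 0.35) and 0.29 for HSP16.9B (SE 0.59, interval -1.03 to 1.61, adjusted p = 0.72). Without mutant replicate 2 the direction turned, to -0.18 and -0.54. The value for HSP16.9A is from the fit with the same genes tested, since it was otherwise under the minimum. The same limit on shared reads applies to this pair.

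A further small HSP of the same cluster, HSP17.9B (Os01g0135900), behaved differently in level. It was at 144, 135 and 141 FPKM in WT and at 192, 245 and 197 FPKM in the mutant, a log2 difference of 0.58 (limma SE 0.17, adjusted p = 0.021). Leaving out mutant replicate 2 ended the call (0.47, adjusted p = 0.075), and so did leaving out WT replicate 2 (0.56, adjusted p = 0.065). HSP16.9C (Os01g0136000), which lies between it and HSP16.9A in the order of identifiers, had 1 read over all libraries.

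HSP26.7 (Os03g0245800, chromosome 3), a small HSP of the chloroplast, was near the limit of detection. It had 0, 1 and 0 reads in WT, 2, 0 and 0 in OE, and 4, 11 and 0 in the mutant. Its mean of 0.181 FPKM over all libraries was under the minimum for the test. The 15 mutant reads against 1 WT read give a ratio of 15.8 with a 95% counting interval of 2.43 to 665, and without a minimum its log2 difference was 0.45 (limma SE 0.21, adjusted p = 0.15).

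Summed over the 5 small HSP members, the level was 3.73 to 4.79 FPKM in WT, 3.58 to 4.43 FPKM in OE, and 41.3 and 107 FPKM in mutant replicates 1 and 2. In mutant replicate 3 the sum was lower, made up of 13.3 FPKM of HSP17.4, 3.56 FPKM of HSP18.1 and 0.598 FPKM of HSP16.9B, and it was still above every WT and OE library. HSP17.4 supplied 30.8 to 43.6% of the sum in WT and 76.6, 54.6 and 76.1% in the mutant libraries.

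BIP1 (Os02g0115900, chromosome 2), the HSP70 of the endoplasmic reticulum, did not share the rise of HSFA2A, HSFA2C, HSP101, HSP17.4 and HSP18.1 in the mutant. It was at 68.0, 66.5 and 58.7 FPKM in WT, at 64.5, 65.0 and 74.1 FPKM in OE, and at 48.9, 64.1 and 52.2 FPKM in the mutant. The mutant range overlapped that of WT and lay just below that of OE. The log2 difference was -0.23 against WT (SE 0.11, 95% interval -0.49 to 0.03, limma adjusted p = 0.14) and -0.30 against OE (SE 0.11, interval -0.56 to -0.05, adjusted p = 0.057). Neither passed. Without mutant replicate 2, the highest of the 3, BIP1 was lower in the mutant at -0.34 against WT (adjusted p = 0.033) and -0.42 against OE (adjusted p = 0.014). Against OE it also passed under quantile normalization (-0.31, adjusted p = 0.049) and upper-quartile scaling (-0.29, adjusted p = 0.048). Other BiP genes were nearly silent: BIP2 (Os03g0710500) had 2 reads over the mutant libraries and 0 elsewhere, and BIP3 (Os05g0367800) had 0 reads in every library.

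Overexpression of OsCOMT left no member past the threshold. Of all genes tested, 0.232% were called in OE against WT, and 10.1% had an unadjusted p under 0.05. That level was reached by 0 of the 8 tested members. With 8 genes both counts are near the background and are no result about the members. Limma voom also called 0 members. The log2 differences of the 8 members lay between -0.17 and 0.33. The 95% interval was -0.18 to 0.33 for BIP1 and -0.72 to 0.71 for HSFA2C, and for HSP101 it was -0.97 to 0.64. For HSP16.9A it was wider, from -1.32 to 1.99. The fit shares its estimate of spread for each gene between all genotypes. These intervals and p-values therefore also carry the spread of the mutant libraries. For HSP16.9A the SD of log2(FPKM + 1) was 0.20 in WT, 0.10 in OE and 1.91 in the mutant. A fit of WT and OE alone also called 0 members. All OE libraries were above all WT libraries for HSFA2A and HSP16.9A, at 10 against 5 and 12 against 4 reads in total, and 7.60% of all tested genes were higher without overlap. The counting interval of the read ratio included 1 for both genes, at 0.630 to 7.55 and 0.920 to 12.9.

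The comparison of the mutant with OE shares the mutant libraries with the comparison against WT. There too HSFA2A, HSFA2C, HSP101, HSP17.4 and HSP18.1 were called higher and none lower, where 20.5% of all tested genes were called higher and 22.9% lower.

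**Figure D3:**
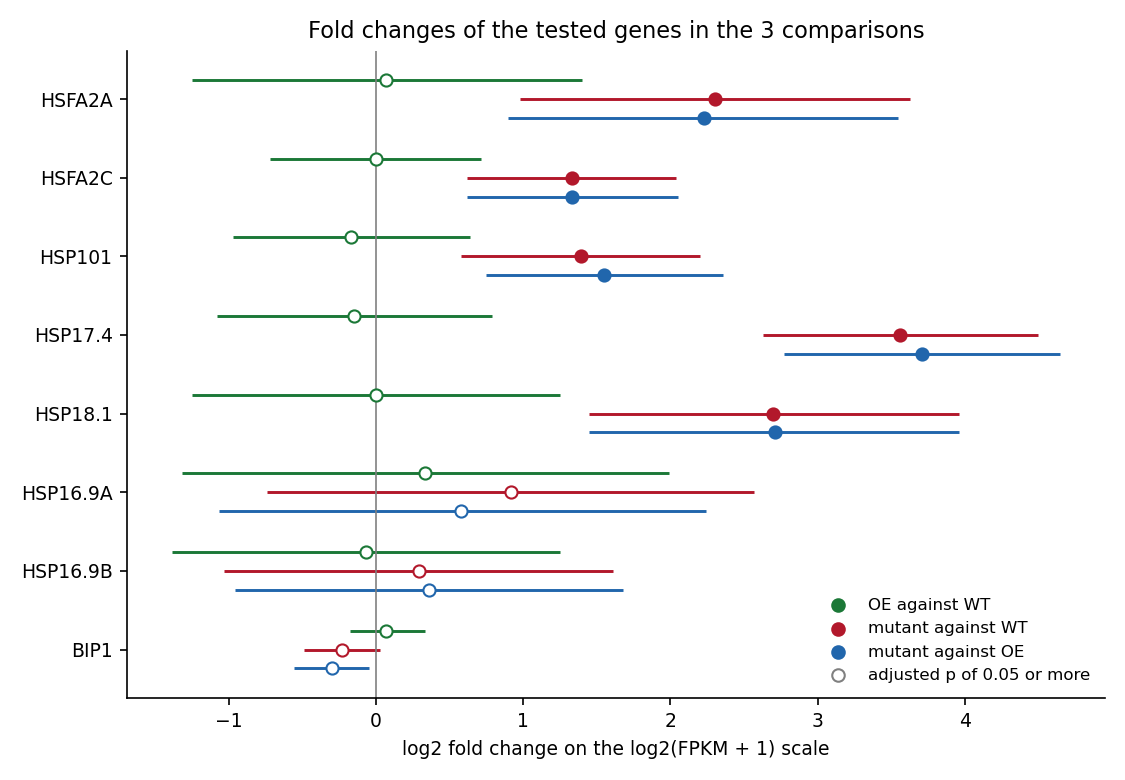
Log2 fold change on the log2(FPKM + 1) scale (horizontal axis) of the 8 tested genes in the 3 comparisons. Points are estimates, bars are 95% intervals from the limma fit, and filled points passed at an adjusted p under 0.05. HSFA2A, HSFA2C, HSP101, HSP17.4 and HSP18.1 are to the right of 0 in both comparisons with the mutant.

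The order of levels among the members differed between genotypes. In WT BIP1 was highest at 64.4 FPKM, HSFA2C followed at 27.2 FPKM, and the other members had means of 1.73 FPKM (HSP16.9B) or less. BIP1 and HSFA2C were apart from each other and from the rest. Below them the ranges of HSP16.9B, HSP17.4, HSP101 and HSP18.1 overlapped from neighbour to neighbour in that order. HSP18.1 stood apart from HSP16.9A, and HSP16.9A, HSFA2A and HSP26.7 overlapped in turn at 0.141, 0.0548 and 0.0281 FPKM. In OE the order was the same. In the mutant HSFA2C came first at 76.3 FPKM, then BIP1 at 55.0 FPKM, HSP17.4 at 34.5 FPKM, HSP18.1 at 13.7 FPKM, HSFA2A at 6.04 FPKM and HSP101 at 5.19 FPKM, and the ranges of all neighbours in the order overlapped.

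The mutant libraries were not alike for these genes. Replicate 2 was the highest mutant library for 8 of the 9 members, HSFA2C being the exception, and for 35.8% of all tested genes. Replicate 3 was the lowest for 7 of the 9, all but HSP16.9A and BIP1, and for 27.6% of all tested genes. Among genes called higher in the mutant against WT, 29.5% were highest in replicate 2 and 37.0% lowest in replicate 3. Against the WT mean, HSP17.4 differed by 3.67, 4.54 and 2.48 in log2(FPKM + 1) in mutant replicates 1 to 3. As ratios of FPKM, HSP18.1 was 11.6, 41.7 and 5.05 times as high in the same libraries. HSP101 was 3.31, 8.66 and 2.07 times as high, and HSFA2C 3.81, 3.27 and 1.35 times. The SD of log2(FPKM + 1) between mutant libraries was 0.79 to 1.91 for the factors, HSP101 and the 4 tested small HSPs, where the median over all tested genes was 0.156 and the 95th percentile 0.51. For BIP1 it was 0.20. In WT and OE the same SD was 0.03 to 0.40 for those genes. For genes near 0 FPKM this scale compresses the SD, so the WT and OE values are not fully comparable with those of the mutant. HSFA2A had an SD of 0.03 in WT although its FPKM spanned a factor of 2.09 there, against 18.9 in the mutant. With mutant replicate 2 left out and the same genes tested, HSFA2A, HSFA2C, HSP101, HSP17.4 and HSP18.1 were still called higher in both comparisons with the mutant, with smaller log2 differences. Against WT that of HSP101 fell from 1.39 to 0.91, that of HSP18.1 from 2.70 to 1.96 and that of HSFA2A from 2.30 to 1.67. This fit was chosen after seeing the data, and its minimum still counted mutant replicate 2. With the minimum taken without that library HSFA2A was not tested. HSFA2C, HSP101, HSP17.4 and HSP18.1 were called higher there too.

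**Figure D4:**
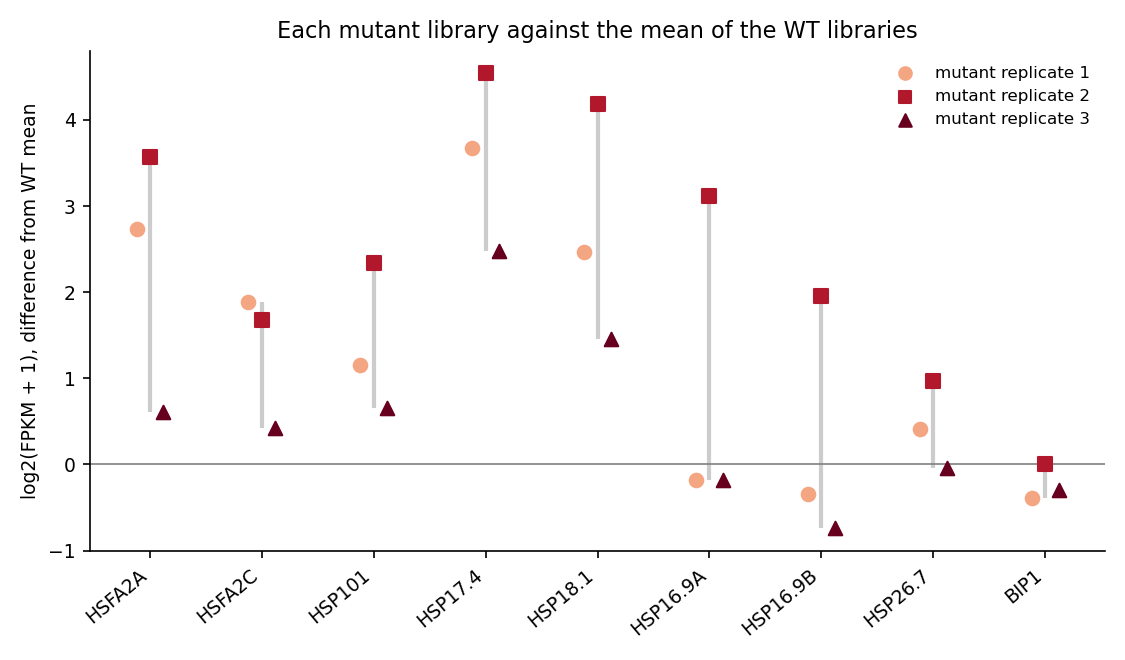
Difference of each mutant library from the mean of the WT libraries in log2(FPKM + 1) (vertical axis), for the 9 genes. Symbols are the 3 mutant libraries and the grey bar joins the lowest and highest. Replicate 3 is nearest to WT for HSFA2A, HSFA2C, HSP101, HSP17.4 and HSP18.1, at 0.42 to 2.48.

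Among the other heat shock factors some rose and some fell in the mutant. Of 20 identifiers with matched names, 14 were tested, and 6 rose and 3 fell in the mutant against WT, with a median log2 difference of 0.13 where all tested genes had -0.01. Of all tested genes 19.6% were higher and 22.4% lower, so 3 of 14 lower is near the background and is no result about the list. HSFB2C (Os09g0526600), a class B factor, rose from 4.71, 3.55 and 4.59 FPKM in WT to 50.4, 49.5 and 23.7 FPKM in the mutant (log2 difference 2.93, SE 0.25, limma adjusted p = 2.5e-05). Class B factors lack the activation motif of class A and many of them repress transcription. HSFB2B (Os08g0546800) rose by 1.73 (SE 0.24, adjusted p = 0.00044). HSFC1B (Os01g0733200), of class C, fell from 35.3, 40.4 and 38.9 FPKM to 1.59, 1.36 and 2.53 FPKM, a log2 difference of -3.81 (SE 0.20, adjusted p = 2e-06). HSFA4D (Os05g0530400), a class A factor known in rice as the lesion gene SPL7, fell from 49.5 ± 11.5 to 10.2 ± 2.23 FPKM (SD, n = 3), a log2 difference of -2.18 (SE 0.29, adjusted p = 0.00036). HSFA1 (Os03g0854500), whose class starts the heat response in tomato and Arabidopsis, averaged 53.8 ± 4.49 (WT) and 46.3 ± 2.03 (mutant) FPKM (log2 difference -0.21, SE 0.08, adjusted p = 0.064). It was looked at after its value was seen. HSFA6B passed the minimum of the test only through the mutant.

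Other small HSPs moved in the direction of HSP17.4 and HSP18.1 where they passed. Of 13 identifiers, 8 were tested, and 5 rose and 0 fell in the mutant against WT (median log2 difference 1.18), where 19.6% of all tested genes were higher. Without mutant replicate 2 the count was 3 of 7, since HSP18.6 fell under the minimum and HSP17.9B was not called, and with the same genes tested it was 4 of 8. Without WT replicate 2 it was 4 of 8. HSP24.1 (Os02g0758000) was at 4.88, 6.15 and 6.41 FPKM in WT and at 104, 165 and 25.3 FPKM in the mutant (log2 difference 3.51, SE 0.53, limma adjusted p = 0.00069). HSP16.0 (Os06g0253100) was at 4.10, 2.59 and 2.70 FPKM in WT and at 39.6, 66.3 and 12.6 FPKM in the mutant (3.04, SE 0.48, adjusted p = 0.00084). HSP26.2 (Os06g0219500) rose by 1.94 (SE 0.31, adjusted p = 0.00087) and HSP18.6 (Os02g0782500) by 1.78 (SE 0.24, adjusted p = 0.00037). HSP18.6 had 5 reads over the WT libraries and passed the minimum only through the mutant. HSP22.3, HSP19.0 and HSP18.0 did not pass. As with most members, mutant replicate 2 was the highest mutant library for all 5 that rose. It was so for 29.5% of all genes called higher in the mutant against WT. Among those called higher in the other lists, it was so for 3 of 6 heat shock factors and 1 of 3 HSP90 and ClpB genes.

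The named HSP90 and ClpB genes rose in the mutant, 3 of 3, against the same background of 19.6%. They are HSP81-1, CLPB3 and CLPB2, the only chaperones of their lists with accepted names. The HSP70, HSP60 and other HSP90 identifiers looked up with them had none and are left out. The count therefore does not describe these families as a whole. CLPB3 (Os02g0181900), of the same ATPase family as HSP101, went from 6.99, 5.25 and 6.58 FPKM in WT to 47.7, 42.7 and 25.1 FPKM in the mutant (log2 difference 2.40, SE 0.21, limma adjusted p = 2.7e-05). CLPB2 (Os03g0426900) rose by 0.60 (SE 0.10, adjusted p = 0.0013). HSP81-1 (Os08g0500700), an HSP90, went from 51.8 ± 3.81 to 195 ± 86.7 FPKM (SD, n = 3; log2 difference 1.77, SE 0.31, adjusted p = 0.0015).

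Among the genes of folding in the endoplasmic reticulum, the compartment of BIP1, few were called. Of 11 identifiers 8 were tested, and 1 rose and 2 fell in the mutant against WT (median log2 difference -0.16). Both counts are near the background of 19.6% higher and 22.4% lower and are no result about the list. PDIL1-1 (Os11g0199200), a protein disulfide isomerase, fell from 243, 249 and 215 FPKM to 106, 145 and 168 FPKM (log2 difference -0.77, SE 0.17, limma adjusted p = 0.0050). BZIP50 (Os06g0622700), the factor that IRE1 activates by splicing its transcript, fell from 55.4 ± 2.43 to 37.0 ± 5.70 FPKM (SD, n = 3; -0.58, SE 0.11, adjusted p = 0.0027). The values do not tell spliced from unspliced transcript. BZIP60 (Os07g0644100), a factor of the same response, was at 12.0, 11.2 and 10.5 FPKM in WT and averaged 19.3 ± 6.12 FPKM in the mutant (SD, n = 3) (0.69, SE 0.22, adjusted p = 0.030), and its call was lost without any of the 3 WT libraries or without mutant replicate 1 or 2. BZIP39 (Os05g0411300), a membrane-bound factor of this response, had a log2 difference of -0.20 (SE 0.10, adjusted p = 0.16).

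In OE against WT none of these 4 lists had a call. Before adjustment, 2 genes of the endoplasmic reticulum list, 1 heat shock factor and 0 genes of the other lists had a p under 0.05, which over the 4 lists is near the 10.1% of all tested genes. The factor was HSFB1 (Os09g0456800), of class B, at 3.07, 3.11 and 3.24 FPKM in WT and at 3.25, 6.75 and 8.96 FPKM in OE. Its log2 difference was 0.74 (limma SE 0.27, adjusted p = 0.40). The OE libraries lay above those of WT, replicate 1 only just, and without OE replicate 1 it was called higher (1.09, adjusted p = 0.048).

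**Figure D5:**
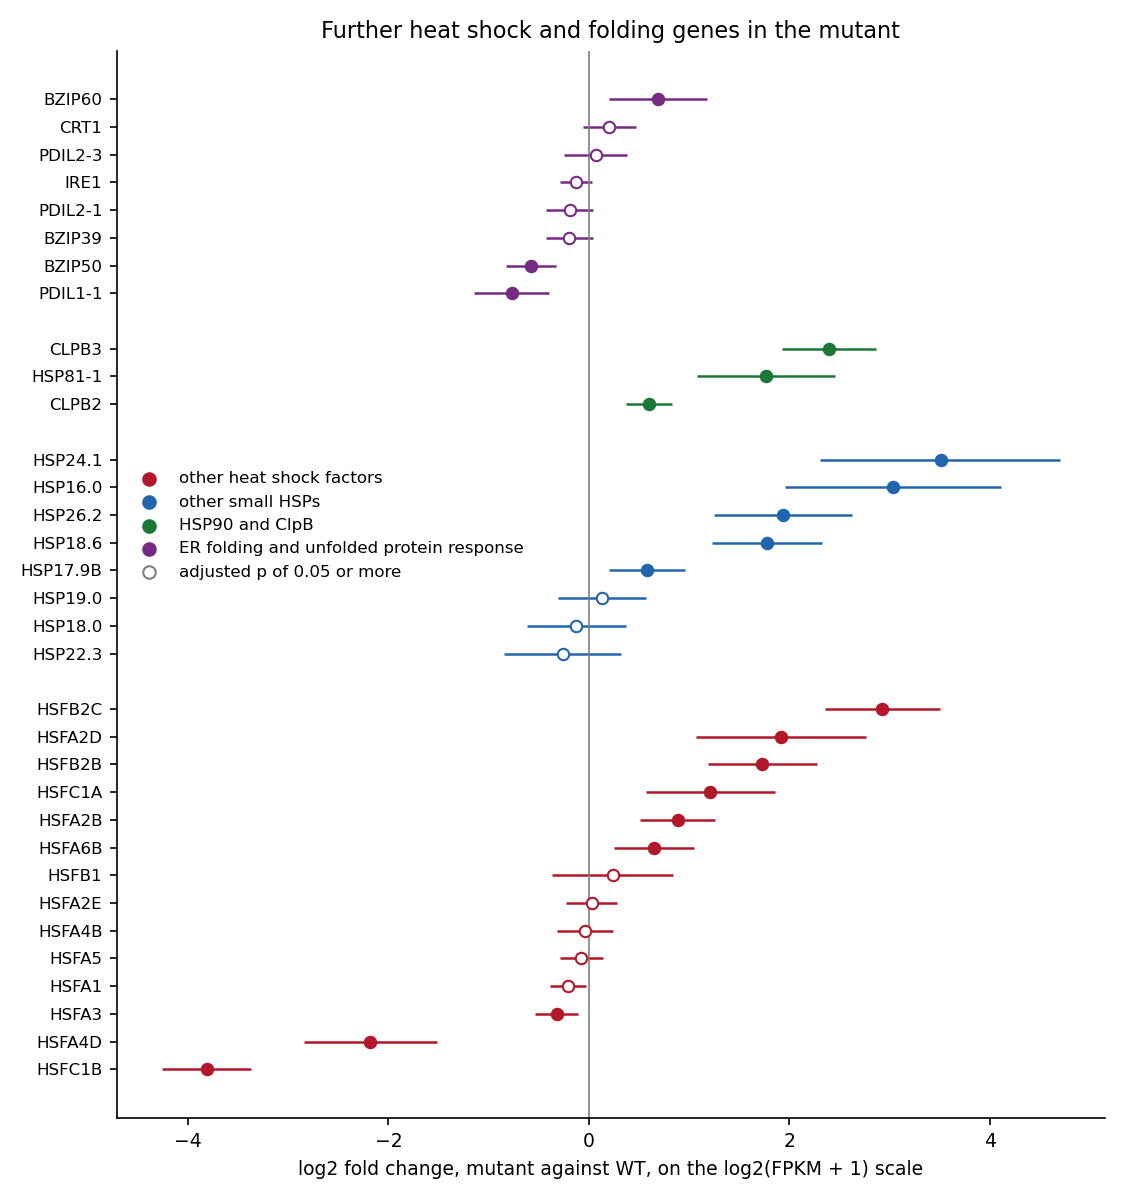
Log2 fold change between mutant and WT on the log2(FPKM + 1) scale (horizontal axis) for the tested genes of the 4 further lists. Points are estimates, bars are 95% intervals from the limma fit, and filled points passed at an adjusted p under 0.05. The HSP90 and ClpB genes with accepted names are at 0.60 to 2.40, whereas the heat shock factors run from -3.81 to 2.93.

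The tested genes most like a member across the 9 libraries were found by the mean absolute difference of log2(FPKM + 1), each gene centred on its own mean. For HSP101 they were Os01g0788400 (0.141) and Os05g0557100 (0.148). For HSFA2A they were Os01g0705200 (0.220) and Os11g0679700 (0.289), and HSP18.1 ranked 19 of the tested genes at 0.349. For BIP1 they were Os05g0378800 (0.036) and Os08g0101400 (0.042). The measure favours genes of similar size of change, and the 9 libraries share the genotype differences.

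Other transcripts differed between the genotypes beside these genes. OsCOMT (Os08g0157500) averaged 241 ± 15.8 (WT), 2643 ± 628 (OE) and 361 ± 121 (mutant) FPKM (SD, n = 3), so the transcript level bears out the OE label and does not check the mutant label. CCA1 (Os08g0157600), a clock factor expressed around dawn, averaged 8.37 ± 1.28 (WT), 7.94 ± 0.767 (OE) and 399 ± 58.1 (mutant) FPKM, a log2 difference of 5.42 against WT (limma SE 0.14, adjusted p = 8.8e-08). By its identifier CCA1 lies close to OsCOMT on chromosome 8. The kind of mutation is not stated, and an effect of it on nearby genes was not tested. Of 5 leaf marker identifiers 3 had accepted names, RCA, CAB1R and CAB2R, and these were above 0 in every library. Their summed levels were 3008 to 4343 FPKM in WT, 3116 to 4979 in OE and 5029 to 6264 in the mutant. The markers moved differently from each other. RCA, which activates Rubisco, was at 184 to 198 FPKM in WT and 1978 FPKM or more in the mutant, a log2 difference of 3.68 (limma SE 0.24, adjusted p = 6.3e-06). For CAB1R, a chlorophyll-binding protein, it was 0.30 (SE 0.19, adjusted p = 0.22). CAB2R, of the same family, was lower in the mutant against OE (-1.78, SE 0.49, adjusted p = 0.016), and against WT the difference was -1.31 (SE 0.49, adjusted p = 0.057). The 5 panicle markers summed to 101 to 128 FPKM in WT, 87.5 to 94.6 in OE and 108 to 134 in the mutant, most of it MADS14. MADS8 was at 0 throughout and MADS7 had 1 read in all. MADS1, a factor of floret identity, was at 3.95, 3.26 and 4.48 FPKM in WT and at 8.55, 9.85 and 6.80 FPKM in the mutant. It was higher there by a log2 difference of 0.94 against WT (limma SE 0.16, adjusted p = 0.0013), and its mutant mean was 2.39 times that of OE (adjusted p = 0.00064). MADS14 (0.35, SE 0.10, adjusted p = 0.020) and MADS15 (1.09, SE 0.39, adjusted p = 0.048) were higher in the mutant against OE but were not called against WT. For both genes the mutant and WT ranges overlapped, whereas every OE library was below every WT library. In OE against WT the log2 differences were -0.28 (MADS14) and -1.34 (MADS15), and neither was called. In the mutant against WT that of MADS15 was -0.24. The part of the CCA1 level, the hour of sampling, the leaf markers or the panicle markers in the differences of the heat shock genes was not tested. In bulk leaf RNA, fewer cells of a type and less RNA per cell cannot be told apart.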

How the data were processed

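Leaf RNA was made into 9 Illumina TruSeq libraries, per the labels' protocols. FPKM per gene is what the authors deposited. Bowtie 0.12.2, Cuffdiff and the build IRGSP-1.0 are listed without roles in the submitters' processing notes. The handling of reads shared by similar genes is not given in the sources used here. The table also has 1 per-sample column that matches no sample and was not used. All 30062 genes above 0 resolved into whole reads (relative tolerance 3e-07, or 0.0002 reads), which gave reads per gene and library totals. Ratios of reads have exact binomial (Clopper-Pearson) intervals at 95%. They cover counting error only, since the reads carry no molecular identifiers.

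Log2(FPKM + 1) was fitted with limma 3.58.1 in R 4.3.3 (lmFit, contrasts.fit, eBayes with trend) over all 9 libraries with no covariate, restricted to genes whose mean reached 1 FPKM. Tests were two-sided, adjusted per contrast by Benjamini-Hochberg, with a threshold of 0.05. The fit was tested on simulated data for OE against WT only, with changes set in genes above a minimum of expected reads. The simulation does not bear on the mutant calls or on genes with few reads. The members and lists were chosen with earlier results of these data known, and so was the way of testing. From each list up to 4 genes of smallest adjusted p in the mutant against WT are named, together with all members, OsCOMT and CCA1. Further genes of the HSFA2 class, gene neighbours, HSP17.9B, HSFA1, HSFA6B, HSFB1, the small HSPs and BiP genes that were not called, and the markers were named after their values were seen.

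Names were accepted where the RefSeq table of assembly ASM3414082v1 has that name or alias on the same chromosome within 0.02 of the same relative rank among protein-coding genes. This held for 9 of 9 members, 47 of 77 further identifiers and 8 of 11 marker identifiers. The other 30, among them HSP70 and HSP60 identifiers, and the other 3 markers, of leaf and root, are not described. No coordinates and no sequences are given, because no genome of the build and no sequence table were used here. Alternatives were pseudocounts of 0.1 and 5, no minimum, a minimum of 5 FPKM, quantile normalization, upper-quartile scaling, array weights, limma voom on the recovered reads, a fit of the compared groups alone, a block for the replicate number, eBayes with no trend, and leaving out each library. Leaving out mutant replicate 2 with the same genes tested was chosen after seeing the data.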

Additional observations from a re-analysis of the deposited data

How the results depend on the processing

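The count of members called in OE against WT was 0 under all 20 alternatives. It was 5 in each comparison with the mutant and fell to 3 in both with a minimum of 5 FPKM, where 4 members were tested. Leaving out each library in turn gave 0 to 0 calls in OE against WT and 5 to 5 in both comparisons with the mutant. Without mutant replicate 2, HSFA2A and HSP16.9A fell under the minimum, 6 members were tested, and BIP1 was called lower. With the same genes tested the count was 6, with BIP1 lower and the others higher. Limma voom called 4 members in each, and 36 genes in all for OE and WT, 8235 for the mutant and WT and 8494 for the mutant and OE, where the fit on FPKM called 46, 8333 and 8622. With the replicate number as a block the counts were 0, 5 and 5. The labels do not say that the numbers pair libraries. Same-numbered libraries had correlations of deviations from -0.07 to 0.21, and differently numbered ones from -0.23 to 0.22. These correlations do not show pairing and cannot exclude it.

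HSP16.9B turned direction in OE against WT without WT replicate 1 (0.06), WT replicate 2 (0.02) or OE replicate 2 (0.02), against -0.07. Over the left-out libraries it ran from -0.3 to 0.06 there, up to 0.81 in the mutant against WT and up to 0.88 in the mutant against OE. Without mutant replicate 2 it was -0.54 against WT and -0.47 against OE. HSP16.9A turned to -0.18 against WT and -0.52 against OE without that library and with the same genes tested. Against OE it also turned to -0.23 with a pseudocount of 0.1 and to -0.69 with voom. Neither gene was called under any alternative, and the cause was not tested. Against OE, HSFA2A lost its call with voom (4.78, adjusted p = 0.084). Scaling moved the median log2 fold change of all tested genes to between -0.02 and 0.02. Few reads limit HSFA2A, HSP16.9A and HSP26.7 outside the mutant.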
